A study of Mus musculus with 6 samples.

Results

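The genes described are 10 named members of the sialyltransferase group in mouse T cells: St6galnac1, St6galnac2, St6galnac4, St6galnac6, St6gal1, St3gal1, St3gal4, St3gal6, St8sia4 and BC018473. The last is a long non-coding RNA gene in the RefSeq table and no known sialyltransferase, and it lies between St6galnac2 and St6galnac1 on chromosome 11. Members were chosen by name, with the group differences of these same arrays already in view. Their differences between the groups are therefore given as a description, with no p-value, and nothing is read from how many passed a threshold. A probe set, the group of array probes that reports on a transcript, belonged to a member when its only annotated symbol was that of the member. This gave 21 probe sets of 45037 on the array, and each of the 10 genes, of 18193 with a single symbol, had at least 1.

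CD8aa Tregs (clone 2D11, replicates 1, 2 and 4) were compared with OT-1 CD8aa+TCRab+ T cells (named OvacD8, replicates 1, 2 and 3), on 6 arrays in all. Per the series title, the first are regulatory T cells whose receptors recognise the non-classical MHC molecule Qa-1. OT-1 cells carry a transgenic T cell receptor for an ovalbumin peptide. Both were described as T cell clones or lines and were grown with antigen, antigen-presenting cells and IL-2. The labels give no mouse strain, sex or age, and do not say whether replicates were separate cultures, so the spread between replicates may be technical, and each group may be 1 line. A difference of cell type therefore cannot be told apart from a difference of line, strain or sex between the groups. In such bulk RNA, fewer cells that make a transcript and less transcript per cell cannot be told apart.

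Sialyltransferases work in the Golgi, where they move sialic acid from the donor CMP-sialic acid to the ends of glycans. The ST3Gal and ST6Gal enzymes add it to galactose, the ST6GalNAc enzymes to N-acetylgalactosamine, and the ST8Sia enzymes to another sialic acid. On T cells much of this sugar sits on O-glycans of glycoproteins such as CD43, CD45 and PSGL-1, and sialylation of these glycans is known to change when CD8 T cells become activated. Sialic acid masks galactose from lectins and forms ligands for selectins and Siglecs.

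The deposited values, read as log2 although the log base is not stated, were centred on the median of each probe set over the 6 arrays. A value of 0 therefore says nothing of whether a gene was on or off. Differences between arrays can be read, but levels, and comparisons of level between genes, cannot. OT-1 replicate 1 stood apart: across probe sets spanning at least 0.1 it correlated at 0.298 and 0.353 with OT-1 replicates 2 and 3, which correlated with each other at 0.855. Members that this array moves are given with and without it. The 15 poly-A spike-in control probe sets also set it apart from the other OT-1 arrays: their mean was -0.08 to 0.63 in CD8aa Tregs and 0.38 in OT-1 replicate 1, against -1.28 and -1.81 in OT-1 replicates 2 and 3. A fit with a term for these 2 sides compares the CD8aa Tregs with OT-1 replicate 1 alone. Of 8 T cell marker genes 1 was higher and 2 were lower in CD8aa Tregs. The lower ones were Cd247, the zeta chain of the receptor complex, on 2 of 4 probe sets (-1.09 and -1.25, limma adjusted p = 0.00402 and 0.00399), and Cd8b1, the CD8 beta chain (-2.36, adjusted p = 0.00142). The higher one was Cd8a on 1 of 5 probe sets (0.85, adjusted p = 0.00814), a call lost without OT-1 replicate 2 (adjusted p = 0.0515). Another Cd8a probe set went the other way, at -2.40 with separate groups, and did not pass over all arrays (adjusted p = 0.0636). That probe set passed as lower without OT-1 replicate 1 or 3 (adjusted p = 0.0328 and 0.0431), and stood at -3.21 with the spike-in term. The remaining Cd8a probe sets differed by at most 0.25 and did not pass, so Cd8a had no single direction. Of the other chains of the complex, Cd3d stood at -0.73 (adjusted p = 0.0978), Cd3e at 0.08 (adjusted p = 0.798) and Cd3g at 0.29 (adjusted p = 0.722), and centring hides whether any was present. B cell markers were flat, with 6 of 7 probe sets spanning under 0.1. The summed macrophage and dendritic cell markers stood highest in OT-1 replicate 1, where the sums over 10 and 14 probe sets were 6.93 and 11.21, against 1.35 to 1.95 and 1.54 to 2.33 on the other OT-1 arrays and at most 0.16 and -0.76 in CD8aa Tregs. Probe sets of H2-Aa, Cd74, Csf1r and Lyz2 carried these sums, with 3.30, 2.15, 2.92 and 2.70 as their highest values. Other markers went the opposite way and were lowest among OT-1 arrays in replicate 1: Cd68 at 0.48, against 3.34 and 3.44, Cd14 at 0.20, against 0.66 and 0.75, and an H2-Ab1 probe set at 0.27, against 1.85 and 2.10. The markers were thus not all high on that array. The macrophage marker Adgre1 and the dendritic cell marker Xcr1 spanned only 0.04 and 0.02, and centring hides whether either was expressed. The part of such cells in the values below was not tested.

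The chromosome 11 stretch held the members that differed most. St6galnac2, BC018473 and St6galnac1 follow each other in the RefSeq gene order (assembly GRCm38.p6), with only Gm11735, which had no matching probe set, among them. In each of the 3 genes 1 probe set was far higher in CD8aa Tregs, and the other was flat for St6galnac1 and St6galnac2 and differed by 0.45 for BC018473. The genome build of the probe design is not given in the sources used here, so positions are given as gene order only.

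BC018473 showed the widest difference of any member. Its probe set 1427451_a_at stood at 4.76, 4.94 and 4.79 in CD8aa Tregs, against -4.76, -5.25 and -5.08 in OT-1 cells. The groups were 9.53 apart at their nearest, while replicates differed by at most 0.17 within CD8aa Tregs and 0.49 within OT-1. The log2 difference was 9.86 ± 0.14 (SE, n = 3 per group), a 931-fold ratio, and it ranked 3 among all probe sets on the higher side. The other probe set, 1427453_at, stood at 1.05, 0.18 and 0.02 in CD8aa Tregs, against -0.02, -0.05 and -0.03 in OT-1 cells. Here CD8aa Treg replicate 1 alone was well above the rest, and the groups were 0.04 apart. The difference was 0.45 ± 0.29, and 0.14 without that array.

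St6galnac1 encodes the enzyme that adds sialic acid to N-acetylgalactosamine at the root of O-glycans, which makes the sialyl-Tn antigen. Probe set 1431249_at stood at 2.84, 3.18 and 3.10 in CD8aa Tregs, against -2.84, -3.21 and -3.15 in OT-1 cells. The groups were 5.67 apart at their nearest, and the log2 difference was 6.10 ± 0.14, a 68.7-fold ratio. On 1421517_at all 6 arrays lay between -0.04 and 0.05 and the groups overlapped.

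St6galnac2 encodes an enzyme of the same kind that acts on core O-glycans which already carry galactose. Probe set 1417616_at stood at 2.71, 2.22 and 2.82 in CD8aa Tregs, against -2.22, -2.37 and -2.28 in OT-1 cells. The groups were 4.44 apart, and the log2 difference was 4.88 ± 0.17, a 29.4-fold ratio. Probe set 1417617_at, which is annotated with the same accession, lay between -0.03 and 0.01 on every array. With the spike-in term the leading differences were 9.59 for BC018473, 5.87 for St6galnac1 and 4.80 for St6galnac2. Leaving out any 1 array moved them only between 9.75 and 9.997 for BC018473, 6.03 and 6.22 for St6galnac1, and 4.76 and 5.06 for St6galnac2.

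Such disagreement between probe sets was found among other genes too. Of 63 genes outside the members with a probe set differing by at least 4, 38 had more than 1 probe set, and 11 of the 38 (28.9%) also had a probe set spanning under 0.1.

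**Figure D1:**
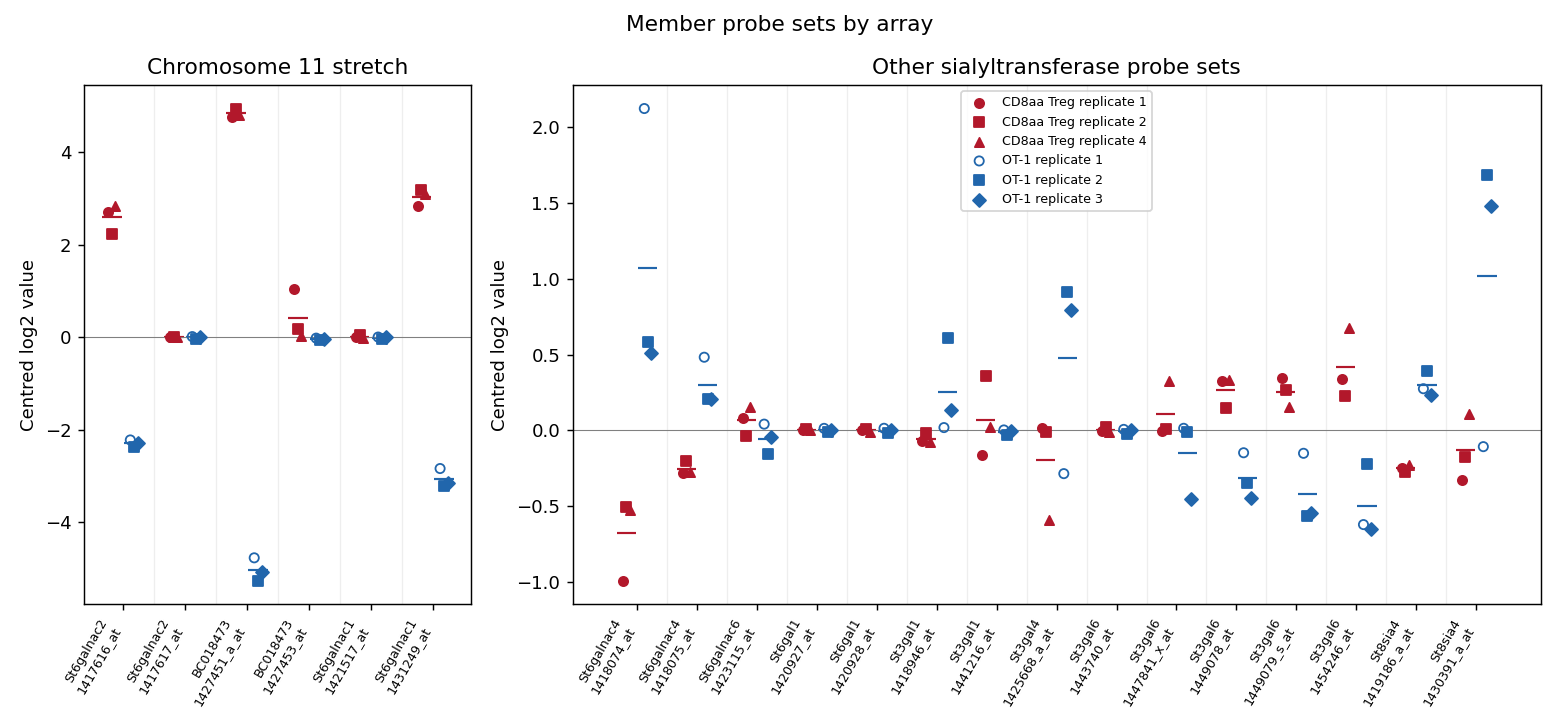
Centred log2 values of the 21 member probe sets on each array, with CD8aa Treg arrays in red on the left of each column, OT-1 arrays in blue on the right (replicate 1 open) and horizontal lines at the group means. The leading probe sets of St6galnac2, BC018473 and St6galnac1 separate the groups by 4.44 to 9.53. OT-1 replicate 1 lies away from the other OT-1 arrays for St6galnac4, St3gal4 and St8sia4 1430391_a_at, but not for St8sia4 1419186_a_at. The 2 panels have different vertical scales.

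The 10 genes on either side of the stretch and Gm11735 made 21 neighbours, of which 13 were measured by 26 probe sets. These were not members and were tested in the fit over all probe sets (limma, Benjamini-Hochberg, adjusted p under 0.05). Of the 13, 2 were higher and 1 was lower in CD8aa Tregs, and the median difference of their probe sets was 0.01, as it was over all probe sets (0.01). Over all genes, 6.79% had a probe set that passed (3.31% higher and 3.51% lower). Snhg16, a small nucleolar RNA host gene, is the nearest measured gene before St6galnac2. Its probe set 1436677_at stood at 1.38, 0.71 and 1.06 in CD8aa Tregs, against -0.71, -1.15 and -1.08 in OT-1 cells, and was higher by 2.03 ± 0.22 (adjusted p = 0.0147). It did not pass without CD8aa Treg replicate 4, OT-1 replicate 2 or OT-1 replicate 3 (highest adjusted p = 0.0762), nor with the spike-in term (adjusted p = 0.058). Its second probe set did not pass, at 0.58 ± 0.15 (adjusted p = 0.146).

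On the other side the nearest gene, Mxra7, a matrix remodelling-associated gene, had 3 probe sets with differences of 0.01 to 0.02, and none passed. They spanned only 0.04 to 0.105, and centring hides whether Mxra7 was expressed at all. Of the 26 neighbour probe sets, 9 spanned under 0.1. Further out, the splicing factor gene Srsf2 was higher on 2 of 4 probe sets, by 1.25 ± 0.11 (adjusted p = 0.00968) and 0.77 ± 0.12 (adjusted p = 0.0443). The first lost its call without CD8aa Treg replicate 2 (adjusted p = 0.0507), and the second without any array but CD8aa Treg replicate 4 (highest adjusted p = 0.152) or with the spike-in term (adjusted p = 0.149). After median and MAD scaling, which sets the median and spread of each array alike, 0 neighbours passed (3 at an unadjusted p under 0.05). After quantile scaling, which sets the whole distribution of each array alike, 3 passed, 2 higher and 1 lower. Mettl23, a methyltransferase-like gene, was lower on 2 of 3 probe sets, by -1.26 ± 0.05 (adjusted p = 0.000768) and -1.62 ± 0.12 (adjusted p = 0.00606), and both passed in all 6 fits with 1 array left out. In the RefSeq table Mettl23 overlaps Jmjd6 and Srsf2 overlaps Mfsd11, so signals within these pairs may not be separate. The neighbours thus went in both directions, with sizes of at most 2.03, against 4.88 to 9.86 for the leading probe sets of the 3 members.

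**Figure D2:**
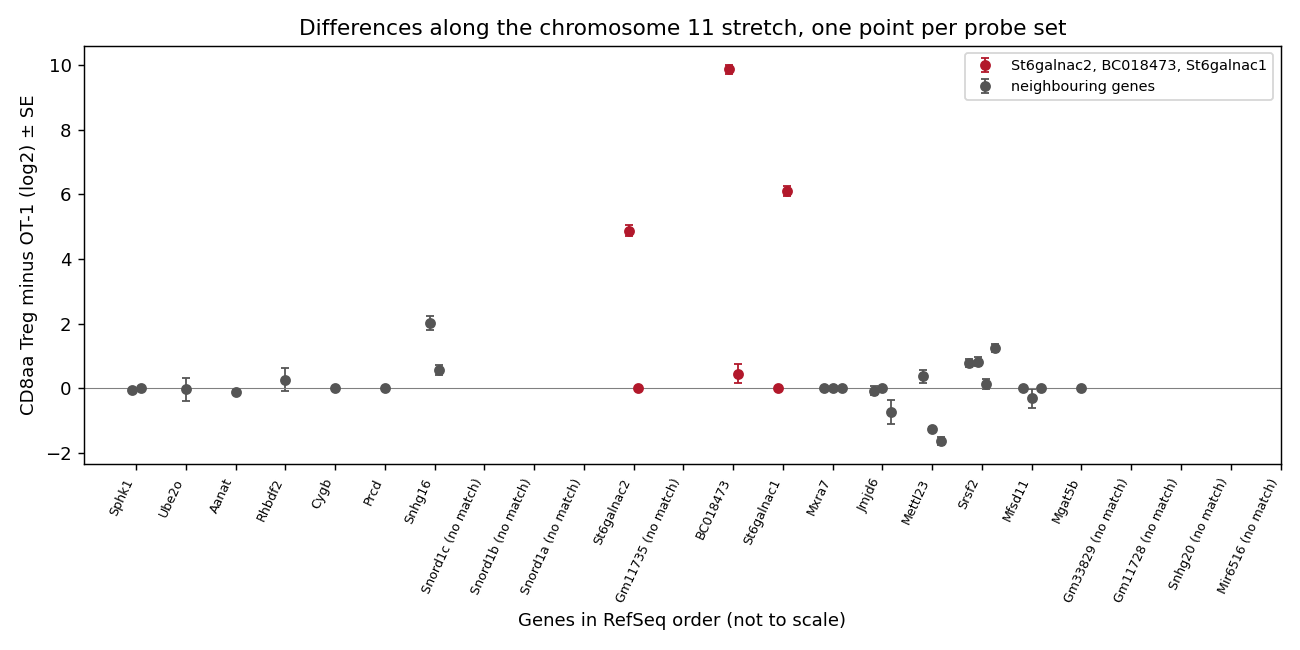
Differences (CD8aa Treg minus OT-1, log2, with SE) of each probe set along chromosome 11, with genes in RefSeq order and not to scale, the 3 members in red and their neighbours in grey. The leading probe sets of St6galnac2, BC018473 and St6galnac1 stand at 4.88, 9.86 and 6.10. Mxra7 next to them, whose probe sets vary little over the arrays, lies at 0.01 to 0.02.

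For the pattern of BC018473, the 5 probe sets of other genes nearest to 1427451_a_at over the 6 arrays belonged to 2 genes: 3 to H2-D1, a class I MHC heavy chain gene that is polymorphic between mouse strains, at Euclidean distances of 0.59 to 1.06, and 2 to Xist, the RNA of X inactivation, at 1.15 and 1.34. Their differences were 9.43 to 10.10 for H2-D1 and 8.86 and 8.99 for Xist. With centred values in 2 groups, this distance mostly returns probe sets whose group difference is of like size. Nothing more is read from it. These 3 H2-D1 probe sets have names ending in _x_at, which marks probes that may bind other transcripts, and can be shared with related class I genes. Whether the groups differ in strain or sex was not tested, and such a difference cannot be told apart from one of cell type.

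Members outside the stretch differed by less. St6galnac4, which adds sialic acid to core O-glycans that are already sialylated and so forms disialylated ends, was lower in CD8aa Tregs on both probe sets. On 1418074_at it stood at -0.99, -0.51 and -0.53 in CD8aa Tregs, against 2.12, 0.58 and 0.51 in OT-1 cells. The groups did not overlap, and OT-1 replicate 1 lay far above the other OT-1 arrays. The difference was -1.75 ± 0.50, without OT-1 replicate 1 it was -1.22 ± 0.18, and with the spike-in term it was -2.80. On that array the summed macrophage and dendritic cell markers were also highest (6.93 and 11.21), through H2-Aa, Cd74, Csf1r and Lyz2. Cd68, Cd14 and some but not all H2-Ab1 probe sets were lower there than on the other OT-1 arrays. On 1418075_at the values were -0.28, -0.20 and -0.28 in CD8aa Tregs, against 0.48, 0.21 and 0.20 in OT-1 cells, a difference of -0.55 ± 0.09 (-0.46 ± 0.03 without OT-1 replicate 1).

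St8sia4 encodes a polysialyltransferase, which builds chains of sialic acid. On 1419186_a_at it stood at -0.25, -0.28 and -0.23 in CD8aa Tregs, against 0.27, 0.39 and 0.23 in OT-1 cells. All OT-1 arrays lay above all CD8aa Treg arrays, with a difference of -0.55 ± 0.05, a ratio of 1.46-fold in favour of OT-1. On 1430391_a_at the values were -0.33, -0.18 and 0.11 in CD8aa Tregs, against -0.11, 1.68 and 1.48 in OT-1 cells. OT-1 replicate 1 lay among the CD8aa Tregs there and the groups overlapped. The difference was -1.15 ± 0.53 over all arrays, -1.72 ± 0.16 without that array and -0.03 with the spike-in term.

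St3gal6, which caps galactose at the ends of glycans and takes part in making selectin ligands, was higher in CD8aa Tregs on 3 of its 5 probe sets. On 1454246_at it stood at 0.34, 0.23 and 0.68 in CD8aa Tregs, against -0.62, -0.23 and -0.65 in OT-1 cells, a difference of 0.91 ± 0.17. On 1449078_at the values were 0.33, 0.15 and 0.33 in CD8aa Tregs, against -0.15, -0.35 and -0.45 in OT-1 cells (0.58 ± 0.10). On 1449079_s_at they were 0.34, 0.27 and 0.15 in CD8aa Tregs, against -0.15, -0.56 and -0.54 in OT-1 cells (0.67 ± 0.13). The groups did not overlap on any of these 3, with gaps of 0.30 to 0.45, and with the spike-in term the differences were 1.04, 0.42 and 0.41. The groups overlapped on 1447841_x_at (0.26 ± 0.17) and on 1443740_at, which spanned 0.05.

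Promoter sequences are shown for St6galnac4 and St8sia4, which were lower in CD8aa Tregs, and for both annotated starts of St3gal6, which was higher, the 3 genes outside the stretch with a gap between groups of at least 0.30 on some probe set. RefSeq windows (GRCm38.p6) running from 250 bases before to 50 bases after a start were found for 6 of the 10 members. Capitals mark GGGCGG or its reverse complement CCGCCC, the GC box that SP family factors bind.
St6galnac4, chr2:32586828-32587127, plus strand: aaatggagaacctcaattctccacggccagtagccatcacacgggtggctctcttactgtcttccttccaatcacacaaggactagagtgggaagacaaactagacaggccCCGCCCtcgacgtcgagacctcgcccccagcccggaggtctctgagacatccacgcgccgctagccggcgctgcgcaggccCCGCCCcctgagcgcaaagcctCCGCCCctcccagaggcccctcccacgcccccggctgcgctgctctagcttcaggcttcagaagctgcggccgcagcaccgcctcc
St8sia4, chr1:95667545-95667844, minus strand: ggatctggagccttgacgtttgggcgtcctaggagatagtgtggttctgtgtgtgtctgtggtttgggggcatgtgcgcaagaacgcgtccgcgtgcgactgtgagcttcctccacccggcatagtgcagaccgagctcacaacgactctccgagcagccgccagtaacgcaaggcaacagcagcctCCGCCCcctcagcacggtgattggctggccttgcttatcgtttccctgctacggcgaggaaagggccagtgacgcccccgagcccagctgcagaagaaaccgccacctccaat
St3gal6 start 1, chr16:58523377-58523676, minus strand: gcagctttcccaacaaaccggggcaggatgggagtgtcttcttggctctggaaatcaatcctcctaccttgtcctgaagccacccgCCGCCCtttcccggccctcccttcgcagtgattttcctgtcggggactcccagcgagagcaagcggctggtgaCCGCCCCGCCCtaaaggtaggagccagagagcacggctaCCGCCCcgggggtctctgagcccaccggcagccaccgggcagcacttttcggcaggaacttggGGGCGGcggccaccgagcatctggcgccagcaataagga
St3gal6 start 2, chr16:58524204-58524503, minus strand: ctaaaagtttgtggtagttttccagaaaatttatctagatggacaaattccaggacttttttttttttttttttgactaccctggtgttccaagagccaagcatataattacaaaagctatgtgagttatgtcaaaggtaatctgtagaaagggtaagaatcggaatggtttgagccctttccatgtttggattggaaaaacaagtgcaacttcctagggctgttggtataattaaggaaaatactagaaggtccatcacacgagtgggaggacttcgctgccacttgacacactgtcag
The St6galnac4 window held 3 GC boxes and 23 CpG dinucleotides at 65.7% G and C, and the St8sia4 window 1 GC box and 22 CpG at 61.3%. The St3gal6 windows differed from each other: the first printed had 5 GC boxes, a pair of them sharing 1 base, and 20 CpG at 64.7%, and the second had 0 GC boxes and 3 CpG at 38.7%. Of all 32851 windows, 35.7% held a GC box on either strand, and the medians were 7 CpG and 52.7% G and C. TGTGGT, a core bound by RUNX factors, was found on either strand 2 times in the St8sia4 window, 1 time in the second St3gal6 window and 0 times in the others printed, against 16.8% of all windows with at least 1, and it overlapped no GC box. These are matches of letters in a window and not shown to be bound sites.

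The remaining members moved little or only with single arrays. St3gal4, which like St3gal6 caps galactose, stood at 0.01, -0.01 and -0.59 in CD8aa Tregs, against -0.29, 0.91 and 0.80 in OT-1 cells on its only probe set, 1425668_a_at. OT-1 replicate 1 lay among the CD8aa Tregs, and the difference was -0.67 ± 0.39 with it and -1.05 ± 0.23 without it, and 0.09, in the other direction, with the spike-in term. St3gal1, the main enzyme that sialylates core O-glycans of CD8 T cells, stood at -0.07, -0.02 and -0.08 in CD8aa Tregs, against 0.02, 0.61 and 0.14 in OT-1 cells on 1418946_at. The groups did not overlap but were only 0.04 apart, and the difference of -0.31 ± 0.17 rested largely on OT-1 replicate 2 (-0.13 without it, and -0.07 with the spike-in term). On 1441216_at the groups overlapped, CD8aa Treg replicate 2 standing highest at 0.36, and the difference was 0.08 with that array and -0.06 without it. St6galnac6, an enzyme of ganglioside sialylation, lay between -0.16 and 0.15 on every array, with overlapping groups (0.12 ± 0.07). St6gal1, which caps N-glycans and makes ligands of the B cell Siglec CD22, lay between -0.02 and 0.01 on both probe sets. Because the levels were removed, these narrow ranges do not say whether St6gal1 was equally expressed or at background in both groups.

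Over all members, the groups did not overlap on 11 of 21 probe sets, 7 with CD8aa Tregs above and 4 below, where 20.3% of all probe sets did not overlap (11.7% above and 8.54% below). In size, 5 of 21 differed by at least 1 on the log2 scale, 3 higher and 2 lower, against 4.95% of all probe sets (2.08% higher and 2.87% lower). In the fit over all probe sets 6 of 21 passed, 4 higher and 2 lower, beside 4.06% of all (2.00% higher and 2.05% lower). Since the members were chosen with this contrast in view, nothing is read from these counts. Their median difference was 0.03, against 0.01 over all probe sets, and 5 of the 21 spanned under 0.1.

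The rest of the pathway was tested with 58 genes (119 probe sets) from 7 lists of related genes, none of them a member. At least 1 probe set passed for 10 of these genes (17.2%, against 6.79% of all genes), 4 higher and 6 lower in CD8aa Tregs. The lists were chosen with earlier results of these data known, so nothing is read from this share. Without OT-1 replicate 1, 17 passed, 4 higher and 13 lower, and without each of the other arrays 2 to 10 passed. After median and MAD scaling 0 passed (24 at an unadjusted p under 0.05). After quantile scaling 11 passed, 3 higher and 8 lower. With the spike-in term 7 passed, of which 4 also passed without it. St8sia1, Galnt2, Galnt3, Galnt7, Galnt12 and C1galt1 did not pass with it (adjusted p from 0.0522 to 0.14). The 3 that passed only with it, named after their values were seen, were St3gal5 (-0.91, adjusted p = 0.00145), Neu1 (-1.002, adjusted p = 0.00345) and Galnt6 (0.27, adjusted p = 0.0147), each on a probe set where OT-1 replicate 1 lay apart from the other OT-1 arrays. Of the 11 other sialyltransferases, 2 were higher and 0 were lower, with a median difference of 0.02 over 25 probe sets. St3gal5, the GM3 synthase, did not pass over all arrays (-0.29, adjusted p = 0.773). St6galnac3 encodes an ST6GalNAc enzyme that adds sialic acid to sialylated O-glycans and gangliosides. Its probe set 1440121_at stood at 2.62, 3.36 and 2.98 in CD8aa Tregs, against -2.62, -2.75 and -2.71 in OT-1 cells. It was higher by 5.68 ± 0.20, a 51.3-fold ratio (limma adjusted p = 0.000629), close in size to the leading St6galnac1 and St6galnac2 probe sets although it is not in the chromosome 11 stretch. A second probe set was higher by 1.16 ± 0.06 (adjusted p = 0.0016), and another did not pass, at 0.03 ± 0.03 (adjusted p = 0.76). Both calls held in all 6 fits with 1 array left out (highest adjusted p = 0.0185).

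St8sia1, which makes the ganglioside GD3, was the other one. On 1455695_at it stood at 1.30, 0.95 and 1.74 in CD8aa Tregs, against -0.95, -1.21 and -0.95 in OT-1 cells, and was higher by 2.36 ± 0.22 (adjusted p = 0.0104). It did not pass without CD8aa Treg replicate 1, OT-1 replicate 2 or OT-1 replicate 3 (highest adjusted p = 0.0597), and its other probe sets did not pass, at 0.40 ± 0.13 and 0.70 ± 0.19, except without CD8aa Treg replicate 2 (adjusted p = 0.0112 and 0.0418). Within the ST6GalNAc family the genes thus went different ways. St6galnac1, St6galnac2 and St6galnac3 each had a probe set higher in CD8aa Tregs by more than 4, St6galnac4 was lower, and St6galnac5 (0.00 to 0.05 over 3 probe sets) and St6galnac6 (0.12) showed overlapping groups.

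Of 7 genes that make, activate, modify, transport or break down sialic acid, 0 were higher and 1 was lower, with a median difference of -0.25 over 15 probe sets. The one was Cmah, which hydroxylates the donor CMP-N-acetylneuraminic acid to its N-glycolyl form. On 1436039_at Cmah stood at -1.32, -1.30 and -1.31 in CD8aa Tregs, against 1.30, 2.75 and 2.16 in OT-1 cells, and was lower by -3.38 ± 0.38, a 10.4-fold ratio in favour of OT-1 (adjusted p = 0.0173). The CD8aa Tregs lay within 0.02 of each other, and OT-1 replicate 1 was the lowest OT-1 array. The call was lost without CD8aa Treg replicate 1, 2 or 4 or OT-1 replicate 3 (highest adjusted p = 0.0787). Its probe sets 1421214_at and 1428043_a_at did not pass over all arrays, at -3.13 ± 0.57 (adjusted p = 0.0625) and -1.49 ± 0.51 (adjusted p = 0.25), and passed without OT-1 replicate 1, at -3.76 (adjusted p = 0.000387) and -2.01 (adjusted p = 0.0176). With the spike-in term they stood at -1.87 (adjusted p = 0.0043) and -0.45 (adjusted p = 0.728), and 1436039_at at -2.61 (adjusted p = 0.0176). The remaining 3 lay between -0.30 and 0.00.

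Of 12 measured genes that start O-glycans or build their cores, 1 was higher and 4 were lower, with a median difference of -0.27 over 30 probe sets. Galnt2, an enzyme that attaches the first N-acetylgalactosamine, was lower by -1.74 ± 0.29 (adjusted p = 0.0481), but not in 5 of 6 fits with 1 array left out, those without OT-1 replicates 2 or 3 or any CD8aa Treg array (highest adjusted p = 0.174). C1galt1, the synthase that adds galactose to form core 1, stood at -0.28, -0.65 and -0.48 in CD8aa Tregs, against 0.31, 0.40 and 0.28 in OT-1 cells on 1428490_at, and was lower by -0.80 ± 0.10 (adjusted p = 0.0266). On 1450745_at it was lower by -1.09 ± 0.16 (adjusted p = 0.0382), and on 1422772_at it stood at -0.81 ± 0.18 (adjusted p = 0.1), passing only without CD8aa Treg replicate 4 (adjusted p = 0.0418). The 1428490_at call was lost without CD8aa Treg replicates 2 or 4 or OT-1 replicates 2 or 3 (highest adjusted p = 0.112), and the 1450745_at call without any array but OT-1 replicate 1 (highest adjusted p = 0.143). Galnt12, of the same family as Galnt2, was higher by 0.62 ± 0.10 (adjusted p = 0.0402), and was lost without any array but CD8aa Treg replicate 4 (highest adjusted p = 0.152). Galnt7 and Galnt3 were the other lower genes, chosen for naming after their values were seen, at -0.48 ± 0.05 (adjusted p = 0.0127) and -0.31 ± 0.04 (adjusted p = 0.0215). Both were lost without CD8aa Treg replicates 1 or 2 or OT-1 replicates 2 or 3 (highest adjusted p = 0.0669 and 0.0966).

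**Figure D3:**
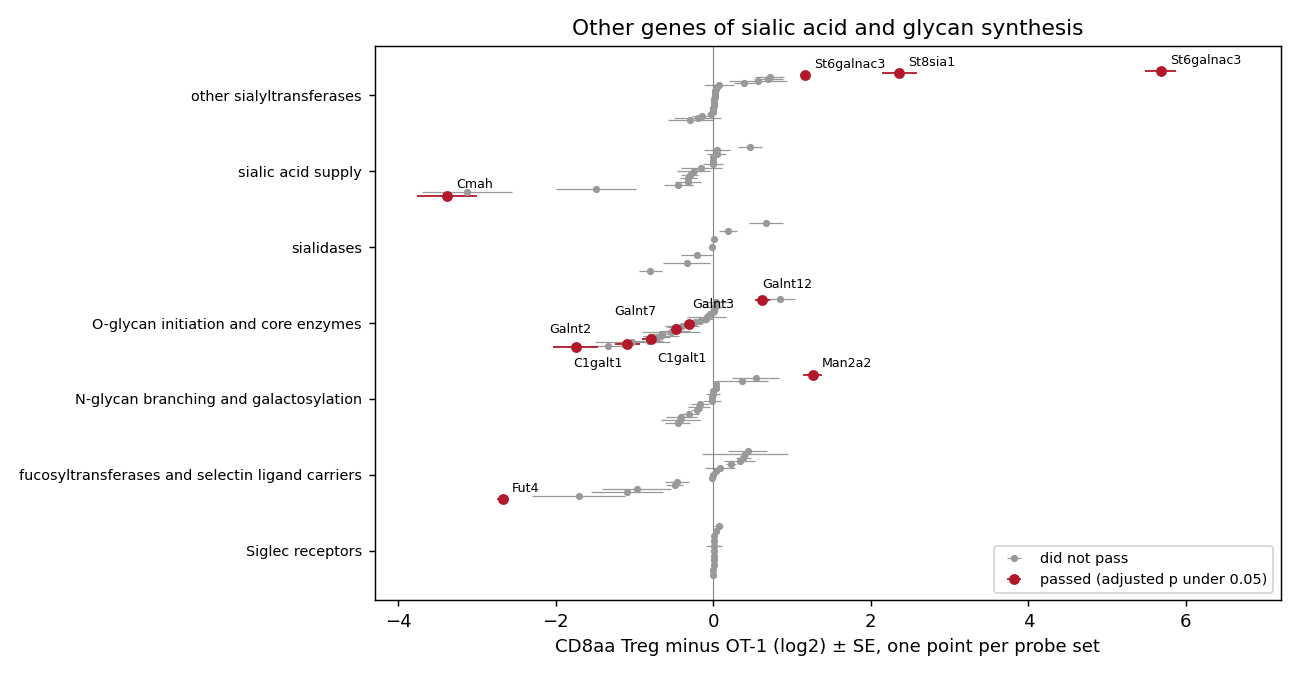
Differences (CD8aa Treg minus OT-1, log2, with SE) of the 119 probe sets of related genes by list, with those that passed in red and named, each point 1 probe set. St6galnac3 stands farthest to the higher side at 5.68 and Cmah farthest to the lower side at -3.38, and the Siglec list lies close to 0.

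Among 9 N-glycan branching and galactosylation genes 1 was higher and 0 were lower (median difference -0.02). Man2a2, an alpha-mannosidase of N-glycan trimming, was higher by 1.26 ± 0.12 (adjusted p = 0.0117), and was lost without OT-1 replicate 3 (adjusted p = 0.0566). Of 7 fucosyltransferases and selectin ligand carriers, 0 were higher and 1 was lower (median difference 0.00). Fut4, a fucosyltransferase of Lewis x type structures, stood at -1.46, -1.36 and -1.25 in CD8aa Tregs, against 1.29, 1.25 and 1.42 in OT-1 cells on 1455843_at. It was lower by -2.67 ± 0.07, a 6.37-fold ratio in favour of OT-1 (adjusted p = 0.000343), in all 6 fits with 1 array left out, while 1450834_at was flat at 0.00.

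The sialidase and Siglec lists gave no calls in limma over all arrays. Of the 4 measured genes of the sialidase list (Neu1, Neu2, Neu3 and Ctsa, the last not itself a sialidase) 0 passed. Neu3, a sialidase of gangliosides and the gene of the list with the widest range, stood at 0.67 ± 0.22 (adjusted p = 0.231). Neu1, the lysosomal sialidase, stood at -0.80 ± 0.15 on 1416831_at (adjusted p = 0.0641), which passed without CD8aa Treg replicate 4 (adjusted p = 0.0247). On 1448481_at it stood at -0.34 ± 0.30 (adjusted p = 0.758), which passed with the spike-in term (-1.002), OT-1 replicate 1 standing at 0.997 and the other 5 arrays between -0.04 and 0.04. Of 8 Siglec receptor genes 0 passed, with 8 of 11 probe sets spanning under 0.1, and the widest, of Cd22, stood at 0.01 ± 0.10 (adjusted p = 0.973). At an unadjusted p under 0.05, 2 of the 4 genes of the sialidase list and 0 of the 8 Siglec genes had a probe set that passed, as did 24.1% of all genes.

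**Figure D4:**
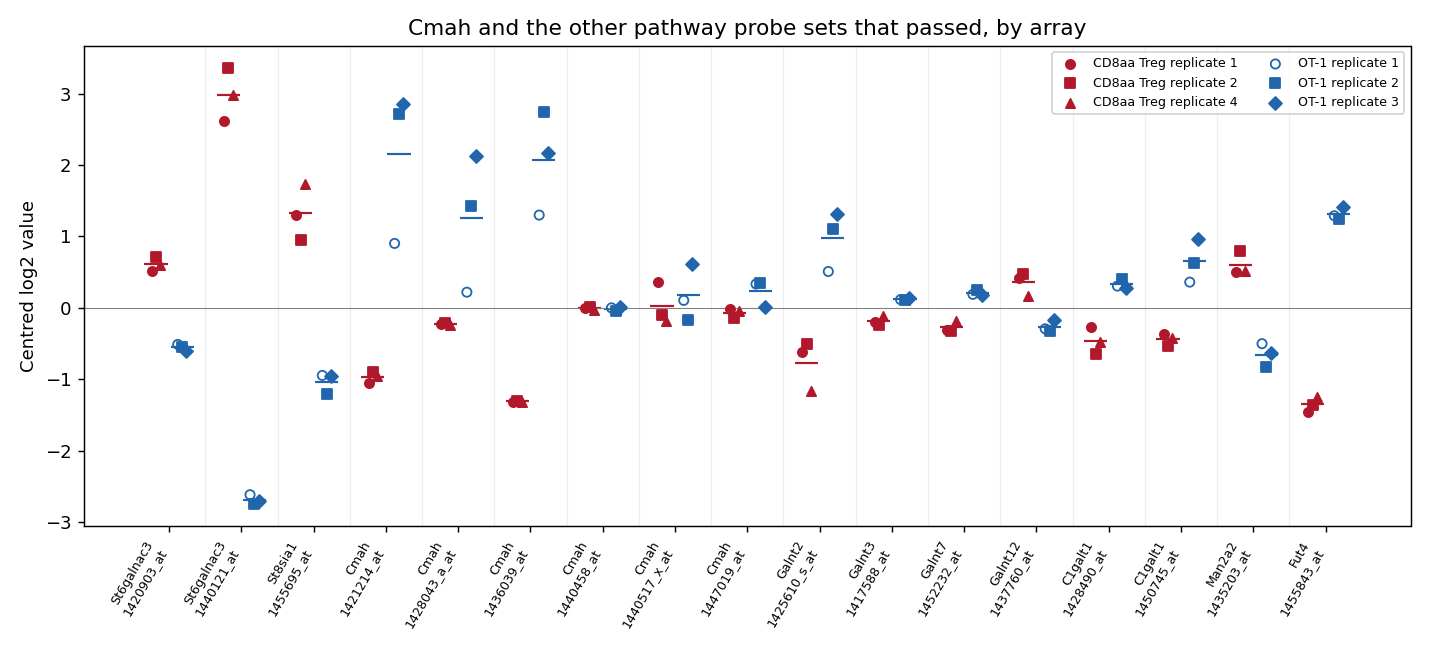
Centred log2 values by array for the 6 Cmah probe sets and for each other related probe set that passed, with CD8aa Treg arrays in red on the left of each column, OT-1 arrays in blue on the right (replicate 1 open) and lines at the group means. Groups are separate on each probe set that passed, and OT-1 replicate 1 is the OT-1 array nearest to the CD8aa Tregs on 1421214_at, 1428043_a_at and 1436039_at of Cmah.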

How the data were processed

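RNA from 6 samples was amplified with the Ovation system and hybridised to 1-colour oligonucleotide arrays, 3 per group. The authors deposited 1 table. Its values, taken as log2 values only by the inference below, were made with RMA before deposit, per the submitters' processing notes. The RMA version and the genome build are not given in the sources used here. Each probe set was centred on its median over the 6 arrays (largest absolute row median 5e-07), as tested on the table. The log base is not stated. The widest span, 11.37, exceeds the natural log of the range of a usual scanner (11.09), and values were read as log2. Arrays give no read depth, so their number limits the precision.

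Of 45101 probe sets, 64 controls were left out. Groups were taken from the labelled cell type. Differences were fitted with limma 3.58.1 (lmFit and eBayes, R 4.3.3) on the remaining 45037, with Benjamini-Hochberg adjustment over all and a threshold of 0.05, and the code was tested on simulated data. Tables were made with pandas 2.3.3 and numpy 2.4.6 and plots with matplotlib 3.10.9. The platform table gave a single symbol for 34945 probe sets, and 10092 had several or none. Probe sets of a gene were kept separate, and a gene passed when any of them did.

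Members and lists were chosen with earlier results of these data known. Named were each member probe set, per list up to 3 genes with the largest difference among those passing (or the gene with the widest range), each neighbour that passed, and the 5 probe sets nearest to the widest member. Alternatives tried were each array left out, a replicate block, quantile and median-and-spread scaling, robust eBayes, array weights, a minimum span, gene means, a threshold of 0.01 and a term for the arrays' poly-A spike-in level.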

Additional observations from a re-analysis of the deposited data

How the results depend on the processing

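Of 252 member differences recomputed under alternatives that can move a difference (robust eBayes and the minimum span cannot), 218 moved by less than 1 replicate SD, and 34 moved further: 13 under gene means, 12 under the spike-in term, 5 under quantile scaling, 3 under median and MAD scaling and 1 under the replicate block. Signs turned for probe sets of St6galnac2, St6gal1 and St3gal6 that span under 0.1, for St3gal1 1441216_at (0.08, and -0.06 without CD8aa Treg replicate 2), which spans 0.52, and for St3gal4 (0.09) with the spike-in term. The count of all probe sets passing (1827) ran between 811 and 4773 with 1 array left out, highest without OT-1 replicate 1. It was 612 at a threshold of 0.01, 1214 with gene means and 2962 for probe sets spanning at least 0.1. With array weights, which were estimated on those spanning probe sets, it was 4879. Under quantile scaling it was 1788. Under median and MAD scaling it was 4, with 6194 at an unadjusted p under 0.05. Related genes passing (10) ran between 2 and 17 with 1 array left out, and were 2 at the threshold of 0.01 and 20 with array weights. They were 11 under quantile scaling and 0 under median and MAD scaling (24 unadjusted). Neighbours passing (3) were 2 to 4 with 1 array left out, 3 under quantile scaling and 0 under median and MAD scaling (3 unadjusted). Of calls, 49.4% were higher and 50.6% lower, against 37.8% and 62.2% after quantile scaling, 0% and 100% after median and MAD scaling, and 34.8% and 65.2% with the spike-in term. Groups shared only replicate numbers 1 and 2, whose deviations correlated at -0.03 and 0.21, and nothing in the labels makes them pairs. With the replicate block, which leaves 1 residual degree of freedom, 229 probe sets, 2 related genes and 0 neighbours (3 unadjusted) passed. The cause of these shifts was not tested. Centring removed signal over background, so no probe set could be called present or absent.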
